A study of Mus musculus with 35 samples.

Results

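H3K4me3, trimethylation of lysine 4 on histone H3, was compared between wild-type mouse retinae at postnatal day (P) 0 and at P21, with 2 ChIP-Seq libraries at each stage. These are 4 of the 35 samples of the series and 4 of the 27 with a peak list. The labels give the 4 libraries the same tissue, the wild-type genotype and the same antibody, named H3K4me3-AB2, so that age is the only labelled difference between the groups. The labels do not say that replicates came from separate animals, and the p-values rest on the spread between these libraries, which may be technical. For each region this spread was drawn towards that of all tested regions. A p-value of 1 region therefore does not rest on its own libraries alone. Peak lists of other libraries are used below as separate measurements of the same regions. Wild-type retinae gave H3K4me3 lists at P12 (1 library) and P14 (2), H3K27Ac lists at P0 (2), P12 (1), P14 (2) and P21 (2), and H3K27me3 lists at P0, P12, P14 and P21 (2 each). A single anti-FLAG library came from P0 retinae of the genotype labelled BRG-FLAG and is called Brg1 below. The H3K27me3 libraries of P0, P14 and P21 carry the antibody label H3K27me3-AB1 and those of P12 the label H3K27me3-AB3, so that for this mark P12 and the antibody cannot be told apart, whereas each of the other marks has 1 antibody label at all stages. Overlapping H3K4me3 peaks of the 4 lists were merged into 26751 regions. The height of a region in a library is the largest fold enrichment over background of its peaks there, and the width is the span in bp that its peaks take up there, gaps included.

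H3K4me3 is deposited at promoters, where sharp peaks flank the start sites of genes that are active or poised. Promoters of developmental regulators can carry it together with H3K27me3, the mark of Polycomb repression, a state called bivalent, and H3K4me3 can spread over several kilobases at genes that are strongly used in a cell type. H3K27Ac marks active promoters and enhancers. At P0 the mouse retina still holds dividing progenitor cells beside newborn neurons, whereas at P21 it consists of differentiated neurons and glia, most of them rods. In whole retinae, fewer cells with a mark and less of the mark per cell cannot be told apart.

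The P0 libraries held 21181 and 21661 peaks and the P21 libraries held 24124 and 18534. The number of reads behind each list is unknown. The P21 libraries differed in enrichment more than the P0 libraries did. Over the regions with a peak in all 4 libraries, the median height was 33.2 and 35.0 at P0, and 52.5 and 20.03 at P21. Heights and widths were therefore scaled to the same median over these regions before any comparison. The scaling hides a change shared by most regions. The lists are on the mm9 assembly according to the submitters' processing notes. No annotation of that assembly was used here, so regions are given by position only, no region was assigned to a gene, and the tissue was not checked against marker genes.

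A peak was present in all 4 libraries at 15207 regions (56.8% of 26751). In these regions the median difference between the stages, P21 minus P0, was -0.05 in height and -0.01 in width on the log2 scale, with an interquartile range from -0.51 to 0.28 for height and from -0.28 to 0.17 for width. Peaks found in both P21 libraries and in neither P0 library numbered 989 (3.70%), and peaks found in both P0 libraries and in neither P21 library numbered 2005 (7.50%). Many other regions were found in 1 library alone. P21 replicate 1, the library with the highest median over the shared regions, held 4201 such regions, P0 replicate 2 held 1651, P0 replicate 1 held 353 and P21 replicate 2 held 29.

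Of the 15207 regions, 1787 differed in height between the stages (11.8%, limma with Benjamini-Hochberg adjustment at 0.05). The height fell at 1532 of them (10.1%) and rose at 255 (1.68%). The median fall among the called regions was -1.42 on the log2 scale and the median rise was 1.41. No difference below 1.09 was called. The balance of falls and rises depended on the scaling. With quantile normalization 336 regions fell and 346 rose, and without scaling, where the P21 libraries stood apart from each other, 2 fell and 6 rose. Leaving out 1 library gave 622 calls without P0 replicate 2, 922 without P21 replicate 1, 962 without P0 replicate 1 and 2415 without P21 replicate 2. All 336 regions that fell with quantile normalization were among the 1532, and 239 of the 346 that rose were among the 255. When an absent peak was set to 0 and regions with a peak in at least 2 libraries were kept, 4261 of 20517 regions were called (20.8%), with 3126 lower (15.2%) and 1135 higher (5.53%) at P21. Most of these calls restate presence. The 989 and 2005 regions found at 1 stage only pass this filter through that stage alone and are fixed at 0 in the other, and 958 and 1980 of them were called. With a peak required in every library 1627 regions were called, and without scaling 0 were. Without P0 replicate 2 the numbers were 704 lower and 1052 higher, so the balance turned, and without P0 replicate 1 they were 921 and 878.

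The width of 2287 regions differed between the stages (15.0% of 15207). At P21, 877 regions were wider (5.77%) and 1410 were narrower (9.27%). The median change among called regions was 0.80 for the wider and -0.79 for the narrower regions on the log2 scale, and the smallest called difference was 0.40. With quantile normalization the numbers were 1207 wider and 1209 narrower. Without P0 replicate 1 or 2 the calls numbered 811 and 817, and without P21 replicate 1 they numbered 4112. Height and width are measures of the same peaks. Of the 255 regions that rose in height, 139 were also wider and 0 were narrower, and of the 1532 regions that fell, 649 were also narrower and 3 were wider. A further 735 regions were wider and 761 narrower with no call in height.

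**Figure D1:**
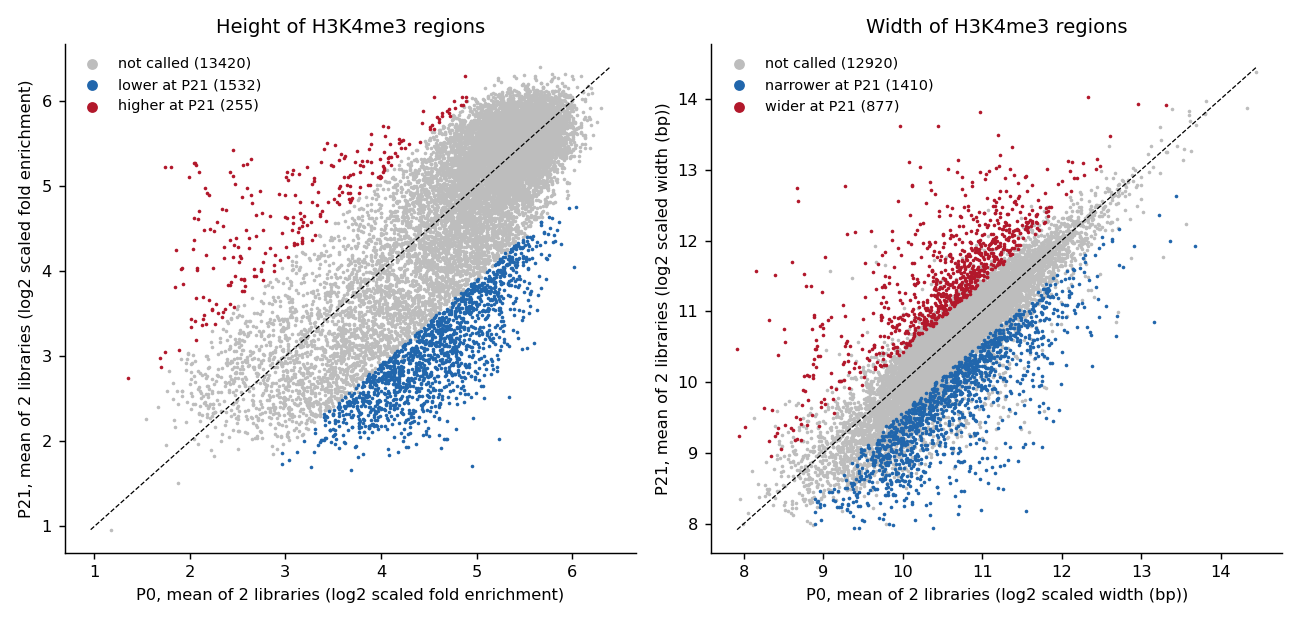
Each point is 1 of the 15207 regions with an H3K4me3 peak in all 4 libraries. The axes give the mean of the 2 P0 libraries against the mean of the 2 P21 libraries, for log2 scaled fold enrichment (left) and log2 scaled width in bp (right). The dashed line marks equal values. Blue regions are lower (1532) or narrower (1410) at P21 and red regions are higher (255) or wider (877). The largest rises start from P0 heights near the lowest measured.

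The strongest rises were found at regions that carried a small, narrow peak at P0 and a high, broad one at P21. At chr1:193800362-193807779 the height was 3.76 and 3.13 in the P0 libraries, and 61.2 and 21.6 in the P21 libraries before scaling. The difference after scaling was 3.48 ± 0.38 (log2, SE, n = 2 per stage, limma adjusted p = 1.23e-08). Its width was 565 and 303 bp at P0 against 7418 and 6142 bp at P21, a difference of 4.07 ± 0.33 (limma adjusted p = 0.0046). This region therefore ranked first in both measures. At chr7:107802258-107815665 the height was 3.79 and 3.37 at P0, and 68.0 and 19.4 at P21, a difference of 3.42 ± 0.38 (limma adjusted p = 1.24e-08). The peaks there spanned 1015 and 1972 bp at P0 against 13408 and 11408 bp at P21. At chr4:154390522-154393770 the height was 4.63 and 3.83 at P0, and 63.6 and 22.3 at P21.

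Over the 10 regions with the largest rise, the height before scaling lay between 3.13 and 6.26 in the P0 libraries, between 46.2 and 69.9 in P21 replicate 1 and between 18.1 and 24.8 in P21 replicate 2. The regions were picked on these heights, so that a difference between the stages follows from the choice. In width, 8 of the 10 also passed the test. Of all tested regions 5.77% were called wider, and of the regions that rose in height 54.5% were. The marks measured separately were alike at these regions. All 10 overlapped an H3K27Ac peak in every wild-type P12, P14 and P21 library, whereas at P0 the H3K27Ac library of replicate 1 had a peak at 5 and that of replicate 2 at 8. None overlapped H3K27me3 from P12 onwards. Of all 15207 regions, between 45.1% and 91.2% overlapped H3K27Ac in these later libraries, and 73.8% and 87.0% in the P0 libraries. For H3K27me3 the shares of the 15207 lay between 25.1% and 32.7% from P12 onwards. At P0, 9 of the 10 overlapped a Brg1 peak in the single anti-FLAG library from Brg1-FLAG mice, against 81.4% of all regions with a peak in 4 libraries.

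The largest falls were found at regions with a strong P0 peak. At chr19:24973717-24975475 the height was 31.6 and 32.1 at P0, and 3.64 and 2.77 at P21, a difference of -3.25 ± 0.39 (log2, SE, limma adjusted p = 3.82e-08). Its width shrank from 1610 and 1759 bp to 319 and 240 bp. The region carried H3K27me3 in each of the 8 wild-type H3K27me3 libraries and H3K27Ac in none of the 7 wild-type H3K27Ac libraries. At chr9:65737675-65739920 the height was 42.4 and 35.0 at P0, and 6.06 and 2.62 at P21, a difference of -3.20 ± 0.38 (limma adjusted p = 3.65e-08). This region had H3K27Ac in both P0 libraries and in none from P12 onwards, and had no H3K27me3 peak at any stage. At chr7:52470810-52472917 the height was 40.8 and 42.3 at P0, and 9.0025 and 3.46 at P21. That region had H3K27Ac in both P0 libraries and none later, and had H3K27me3 in every P12, P14 and P21 library and in neither P0 library. The 3 regions thus lost height with 3 different combinations of the other marks. Over the 10 largest falls, the height before scaling was between 17.5 and 45.7 at P0 and between 2.62 and 9.0025 at P21. Both P21 H3K27me3 libraries had a peak at 8 of the 10 regions, and H3K27Ac had a peak at 0 of them in P21 replicate 1 and at 2 in P21 replicate 2. Of all 15207 regions these shares were 26.3% and 29.1% for H3K27me3, and 45.1% and 84.3% for H3K27Ac. The 10 regions were picked on their heights.

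The calls were then counted within classes of the other marks. A region was counted as carrying a mark at a stage when peaks of both replicates overlapped it, and as lacking it when neither did. H3K27me3 was present at both P0 and P21 at 2975 of the 15207 regions, so that peaks of both marks overlapped there at both stages. Whether the marks lie together in the same cells, as in the bivalent state, was not tested. Of the 2975, 902 fell in height (30.3%, against 10.1% of all tested regions) and 14 rose (0.471%, against 1.68%). The median difference was -0.75 in height and -0.34 in width, against -0.05 and -0.01 over all tested regions. The median height, scaled over the 15068 regions with a peak in all 7 wild-type H3K4me3 libraries, was 22.8 and 24.1 at P0 and 11.5 and 13.99 at P21. The median width was 1485 and 1471 bp at P0 and 1183 and 1083 bp at P21. Falls outnumbered rises in this class with quantile normalization too, with 208 falls and 30 rises, and without each library in turn, with between 337 (without P0 replicate 2) and 1209 falls and between 9 and 19 rises. Without scaling 1 region fell and 0 rose. In width 685 of the class narrowed (23.0%) and 35 widened. The number narrowed was 205 without P0 replicate 2, 211 without P0 replicate 1, 297 without scaling, 1042 without P21 replicate 2 and 1323 without P21 replicate 1.

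Regions that gained H3K27me3 between the stages showed the same direction. These numbered 549, of which 146 fell in height (26.6%) and 0 rose, and 148 became narrower (27%, against 9.27% of all tested regions) and 3 wider. The falls numbered 33 with quantile normalization (6.01%), 49 without P0 replicate 2, 61 without P0 replicate 1, 70 without P21 replicate 1 and 0 without scaling, and the narrowed regions 40 without P0 replicate 2, 45 without P0 replicate 1, 57 without scaling and 236 without P21 replicate 1. The median scaled height of the 549 regions was 33.9 and 32.2 at P0, close to the 33.3 and 33.3 over all tested regions, and 18.6 and 21.4 at P21. The regions that lost H3K27me3 moved the other way, mostly in width. Of the 762 such regions, 162 widened (21.3%, against 5.77%) and 11 narrowed, and 52 rose in height (6.82%) and 11 fell. Without P0 replicate 1 or 2 the widened regions numbered 83 and 83 and the rises 23 and 21, and without scaling they numbered 73 and 0. The median scaled width of the 762 regions was 1655 and 1613 bp at P0 against 1987 and 1958 bp at P21. At the 9227 regions with H3K27me3 at neither stage, 167 rose (1.81%) and 244 fell (2.64%), while 580 were wider (6.29%) and 348 narrower (3.77%). In that class the balance in height turned under other settings, with 218 rises and 49 falls under quantile normalization, 86 and 50 without P0 replicate 2, and 153 and 125 without P21 replicate 1. Its wider regions numbered 222 without scaling, 228 without P0 replicate 1, 255 without P0 replicate 2 and 874 without P21 replicate 1.

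By H3K27Ac the calls ran the other way. The mark was gained at 132 tested regions, of which 38 rose in height (28.8%) and 54 widened (40.9%). With all 4 libraries 0 of them fell or narrowed. Without P21 replicate 1 some of the 132 were called narrower, while their median difference in width was 0.48. H3K27Ac was lost at 514 regions, of which 255 fell in height (49.6%) and 230 narrowed (44.7%), and 0 rose or widened. With quantile normalization 1 of the 514 rose and 4 widened. These falls numbered 81 with quantile normalization (15.8%), 98 without P0 replicate 2, 139 without P21 replicate 1, 144 without P0 replicate 1 and 1 without scaling, and the narrowed regions 84 and 84 without P0 replicate 1 or 2 and 116 without scaling. The rises of the class that gained it numbered 22 without P0 replicate 2 and 1 without scaling. The median scaled height of the regions that lost H3K27Ac was 28.6 and 29.8 at P0 and 11.4 and 13.3 at P21. Regions with H3K27Ac at both stages numbered 6373. Of these 622 widened (9.76%) and 61 narrowed (0.957%), whereas 102 rose in height (1.60%) and 24 fell (0.377%). Without P0 replicate 1 the widened regions numbered 218 and the rises 38, without P0 replicate 2 they numbered 243 and 49, and with the longest peak as the width 399 widened. The 1188 regions with H3K27Ac at neither stage started low, at a median scaled height of 13.2 and 15.04, and 418 of them fell (35.2%) and 6 rose. Here the falls numbered 90 with quantile normalization (7.58%), 158 without P0 replicate 2, 168 without P21 replicate 1, 235 without P0 replicate 1, 794 without P21 replicate 2 and 1 without scaling. The replicates of H3K27Ac differ widely in their number of peaks, so a region that lacks the mark in 1 replicate only enters no class, and the classes hold fewer than all 15207 regions.

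Both marks changed together at a small number of regions. H3K27me3 was lost and H3K27Ac gained at 36 tested regions, where 14 rose in height (38.9%), 16 widened (44.4%) and, with all 4 libraries, 0 fell or narrowed. Their median scaled height was 12.8 and 14.2 at P0 and 24.5 and 24.02 at P21. H3K27me3 was gained and H3K27Ac lost at 74, where 39 fell (52.7%), 38 narrowed (51.4%) and 0 rose or widened. The falls numbered 12 with quantile normalization (16.2%), 17 and 17 without P0 replicate 1 or 2, 25 without P21 replicate 1 and 0 without scaling. Of the 36 regions, 5 and 6 rose without P0 replicate 1 and 2, and 0 without scaling. The median scaled height of the 74 went from 31.5 and 30.9 to 13.6 and 13.7. These counts describe overlaps of peak lists, and no test of enrichment was made.

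**Figure D2:**
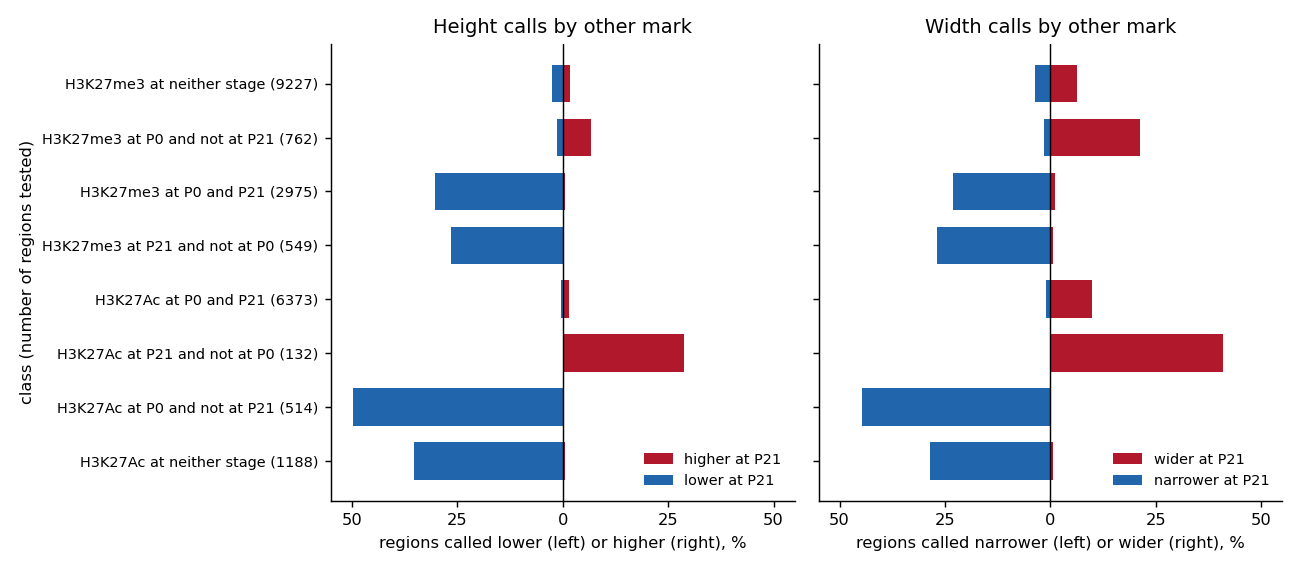
Bars give the share (%) of tested regions in each class of H3K27me3 or H3K27Ac that was called lower or narrower (blue, to the left) or higher or wider (red, to the right) at P21. The left panel is height and the right panel is width, and the number of regions tested is in brackets. Classes that kept or gained H3K27me3, or lost or lacked H3K27Ac, lie to the left, and classes that gained H3K27Ac or lost H3K27me3 lie to the right.

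Brg1, the ATPase of the BAF chromatin remodelling complex, was bound at P0 at 12379 of the tested regions and not at 2828. Among the bound regions 205 rose (1.66%) and 1010 fell (8.16%) in height, and 771 widened (6.23%) and 1026 narrowed (8.29%). Among the regions without a Brg1 peak 50 rose (1.77%) and 522 fell (18.5%), and 106 widened (3.75%) and 384 narrowed (13.6%). The regions without Brg1 were lower at P0, with a median scaled height of 19.5 and 22.9 against 36.2 and 35.2. With quantile normalization 97 of the regions without Brg1 fell and 71 rose, and 239 of the bound regions fell and 275 rose. In width, 336 of the bound regions widened and 298 narrowed without P0 replicate 2, which turns the balance, as did quantile normalization for the regions without Brg1 (234 and 217). The difference between bound and unbound regions was not tested.

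The overlap shares of each library show when the other marks were present at the changed regions. Of the 255 regions higher at P21, H3K27me3 was found at 29.0% and 34.1% in the P0 libraries and at 6.67% and 8.63% in the P21 libraries. Of the 1532 regions lower at P21, these shares were 61.6% and 70.1% at P0 and 76.9% and 80.9% at P21, against 27.5% to 32.4% and 26.3% to 29.1% of all tested regions. For H3K27Ac, the shares of the regions lower at P21 were 38.8% and 70.1% at P0, and 1.83% and 34.1% at P21, against 73.8% and 87.0% at P0 and 45.1% and 84.3% at P21 of all tested regions. The low first value at each stage belongs to replicate 1, whose lists are the shorter. At P21, 89.2% and 98.6% of the wider regions overlapped H3K27Ac, and their bases were covered by it to 60.9% and 78.7%. Over all tested regions these coverages were 23.4% and 51.1%. Wider regions are also longer, with a median merged length of 3157 bp against 1966 bp over all tested regions, and a longer region can meet a peak more easily.

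**Figure D3:**
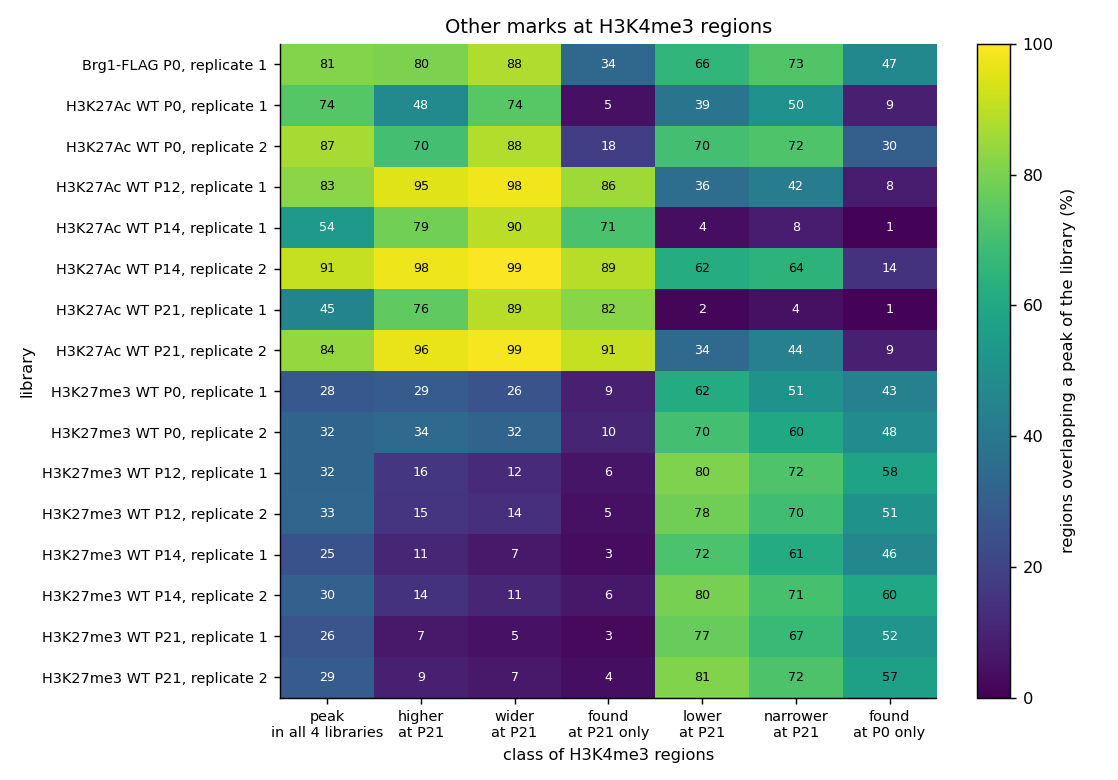
Each cell gives the share (%) of the regions of a class (columns) that overlapped a peak of a library (rows). In the H3K27me3 rows, the regions lower or narrower at P21 or found at P0 only lie between 43.4% and 80.9%, and the regions with a peak in all 4 libraries between 25.1% and 32.7%. From P12 onwards the regions higher or wider at P21 or found at P21 only lie between 2.73% and 15.7%.

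Wild-type H3K4me3 libraries of P12 (1 library) and P14 (2 libraries), which took no part in the calls, placed the changes in time. Among the regions higher at P21, the median scaled height was 8.16 and 8.997 at P0, 20.6 at P12, 26.02 and 23.6 at P14, and 27.9 and 28.9 at P21. Among those lower at P21 it was 23.1 and 25.7 at P0, 13.3 at P12, 12.2 and 11.9 at P14, and 7.14 and 9.23 at P21. The values at P12 and P14 thus lay between those of P0 and P21 in both classes, and nearer to P21. The wider regions had a median scaled width of 1576 and 1590 bp at P0, 2675 bp at P12, 2674 and 2744 bp at P14, and 2831 and 2951 bp at P21. In the narrower regions it was 1565 and 1578 bp at P0, 1097 bp at P12, 962 and 982 bp at P14, and 869 and 806 bp at P21. The stages between P0 and P21 were not tested against either.

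**Figure D4:**
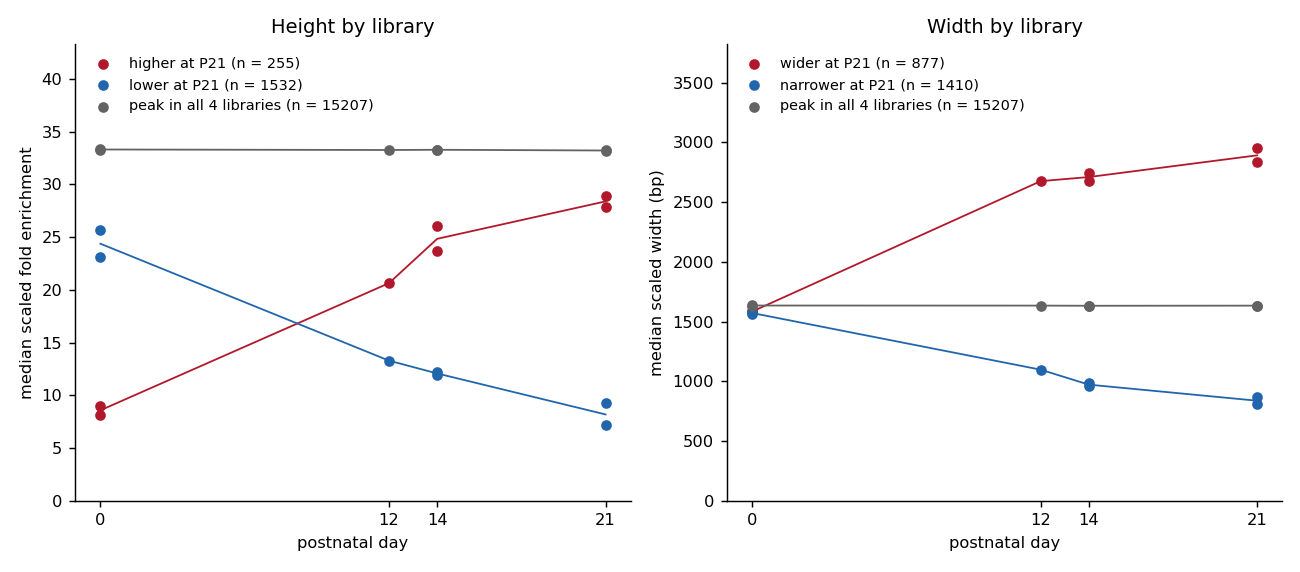
Points give the median over regions in each wild-type H3K4me3 library at P0, P12, P14 and P21 (postnatal day on the horizontal axis), for scaled fold enrichment (left) and scaled width in bp (right). Lines join the means of the libraries of a stage. All tested regions stay level by construction of the scaling, while the called classes at P12 lie nearer to their P21 than to their P0 values.

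Changes mainly on 1 side were more frequent among the wider than among the narrower regions. The edges of the 877 wider regions moved by a median of 999.5 bp on the side that moved more and by 115.5 bp on the other side, and 590 regions (67.3%) had at least 80% of the added length on 1 side. Among the 1410 narrower regions the edges moved inwards, with a median change of -487 bp on the side that moved more and of -174.5 bp on the other, and 454 (32.2%) were one-sided by the same measure. In this measure an edge that moved the other way counted as 0. For comparison, the median larger edge difference between replicates was 123 bp at P0 and 234 bp at P21 over all tested regions. The median smaller one was 40 and 89 bp, so that edges also differed unevenly between replicates. No one-sided share was computed for regions that were not called. Peaks were more fragmented in P21 replicate 2, where 34.0% of the wider regions held at least 2 peaks, against 6.96% in P21 replicate 1. When the longest peak of a region was used as its width, 563 regions were wider and 1039 narrower.

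Broad H3K4me3 regions changed with the stage. Peaks spanned at least 5000 bp in both libraries at 189 regions at P0 and at 234 at P21, of which 96 were shared. Widths were not scaled here, and single libraries held 195 and 247 such regions at P0 and 404 and 234 at P21. The P21 number is thus that of replicate 2, and without that library it would be 404. Of the 234, 124 regions were this broad in neither P0 library, and of the 189, 50 were this broad in neither P21 library. The regions broad at P21 only had median widths of 1992 and 2260 bp at P0, 6142 bp at P12, 5719 and 6129 bp at P14, and 6975 and 6351 bp at P21. Of the 124, 27 had no P0 peak in either library and 94 had a peak in all 4 libraries. Of these 94, 86 were called wider (against 5.77% of all tested regions) and 17 higher (against 1.68%). The 124 were chosen by these same widths, so the calls in width follow largely from the choice. H3K27Ac was present at both stages at 82 of the 124 (66.1%). This compares with 41.9% of the regions with a peak in all 4 libraries and 24.5% of all 26751 regions. It was gained at 27 (21.8%, against 0.868% and 9.06%), and H3K27me3 was lost at 24 (19.4%, against 5.01% and 4.37%). Of the 50 regions broad at P0 only, 19 (38.0%) carried H3K27me3 at both stages (against 19.6% and 19.5%) and 0 lost it. Of the 48 tested, 23 were called narrower (against 9.27%), again on the widths that chose them. All 189 regions broad at P0 overlapped a Brg1 peak at P0, the 50 and the 96 shared ones among them. Of the 124, 103 did (83.1%), against 81.4% of the regions with a peak in all 4 libraries. Broad regions are longer than the rest, and a longer region can meet a peak more easily.

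The 10 regions with the largest rise in width spanned between 250 and 2998 bp at P0 and between 2574 and 14515 bp at P21. They were picked on these widths. All 10 passed the test in height as well, and 5 of them were among the 10 largest rises in height. Of all tested regions 1.68% were called higher, and of the wider regions 15.8% were. Height and width are measures of the same peaks, so the calls in height are not separate support. At chr1:4338780-4352110 the width was 876 and 1182 bp at P0 against 13331 and 11550 bp at P21, a difference of 3.65 ± 0.14 (log2, SE, limma adjusted p = 0.0028). The P12 and P14 libraries already gave 11773, 11624 and 12347 bp there, so that 3 further libraries held a peak of about the P21 width. This region had neither Brg1 nor H3K27Ac at P0, and H3K27Ac in every later library. At chr17:47046285-47060799 the width was 1376 and 2998 bp at P0 and 14515 and 13995 bp at P21, with 10968 bp of the mean extension at the right and 1100 bp at the left. At chr9:107576101-107585239 the width rose from 1069 and 1126 bp to 9139 and 8262 bp, while its height before scaling was 7.07 and 24.3 at P0. This was the only region of the 10 with H3K27me3 in both P0 libraries. H3K27me3 was found there in both P12 libraries and in no P14 or P21 library, and the P12 libraries carry the other antibody label.

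**Figure D5:**
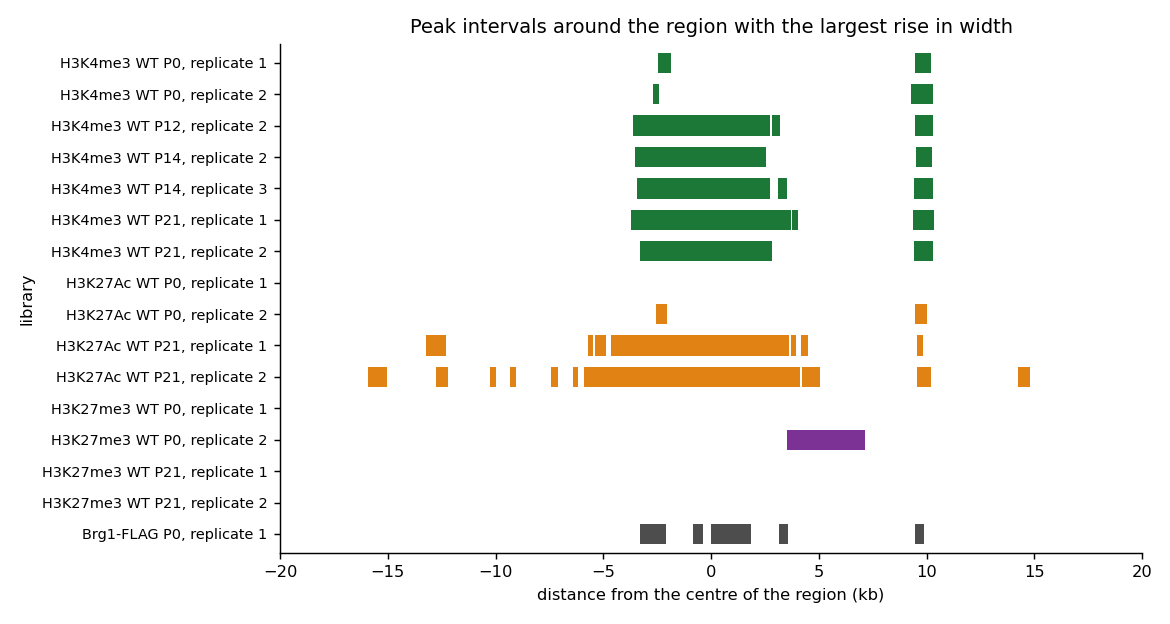
Bars are the peak intervals of each library within 20 kb of the centre of chr1:193800362-193807779, the region with the largest rise in width. The P0 H3K4me3 libraries hold a peak of 565 and 303 bp, and the P12, P14 and P21 libraries hold intervals that together span 6120 to 7418 bp. H3K27Ac covers the same stretch at P21. A neighbouring H3K4me3 peak about 10 kb to the right is present in all 7 libraries.

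The 10 regions with the largest loss of width spanned between 1521 and 3551 bp at P0 and between 234 and 911 bp at P21. These 10 were also picked on their widths. At chr6:23197168-23200423 the width was 2844 and 3256 bp at P0 against 234 and 349 bp at P21, a difference of -3.37 ± 0.30 (log2, SE, limma adjusted p = 0.0059). The P12 library still held 2419 bp there, and the P14 libraries 430 and 498 bp. At chr9:108380853-108382990 the width was 2083 and 2019 bp at P0, 418 bp at P12 and 284 and 292 bp at P21. The former region carried H3K27me3 in each library of every stage and the latter in none. Of the 10 regions, 9 had H3K27me3 in all 8 wild-type libraries, 9 had a Brg1 peak, and 0 had H3K27Ac in any library from P12 onwards. Of all tested regions, 81.4% had a Brg1 peak. H3K27me3 was found at between 25.1% and 32.7% of them in each library, and H3K27Ac at between 45.1% and 91.2% from P12 onwards.

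Regions found at 1 stage only were smaller than the rest on the whole. The 989 regions found at P21 only had a median height before scaling of 10.6 and 5.17 and a median width of 1282 and 543 bp in the P21 libraries. A peak was present at 77.7% of them in the P12 library and at 64.6% and 72.0% in the P14 libraries. H3K27Ac was gained at 64.1%, against 9.06% of all 26751 regions, and 87.3% had H3K27me3 at neither stage, against 61.6%. A Brg1 peak at P0 was found at 33.7%, against 61.7%. Of these regions, 31.0% lay within 5000 bp of a region with a peak in all 4 libraries, and 13.5% of the latter lay as near to another of them. The number depended on P21 replicate 2. Without that library 5190 regions met the rule, and when peaks up to 500 bp apart were merged 765 did.

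The highest of them were large. At chr5:108815475-108827998 no P0 library had a peak, while the P21 libraries had heights of 71.0 and 30.4 over 12524 and 10841 bp. The P12 library covered 10725 bp of it, and the P14 libraries 9581 and 10814 bp. This region carried H3K27me3 in both P0 libraries and in no later one, and H3K27Ac in every library from P12. At chr11:90048824-90051430 the P21 heights were 64.5 and 33.4 over 2570 and 2515 bp, with no Brg1, H3K27Ac or H3K27me3 peak at P0. The 10 highest regions had P21 heights between 64.5 and 79.1 in replicate 1 and between 16.3 and 33.4 in replicate 2. All 10 had H3K27Ac in every library from P12, against between 36.7% and 71.1% of all 26751 regions. H3K27me3 was found in both P0 libraries at 1 of them and in 1 P0 library at 2 others.

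The 2005 regions found at P0 only had a median height before scaling of 5.03 and 6.41 and a median width of 477 and 614 bp. Of these, 30.5% had a peak in the P12 library and 6.43% and 8.03% in the P14 libraries. H3K27me3 was found at both stages at 39.4%, H3K27Ac at neither stage at 66.6%, and Brg1 at 46.7%, against 19.5%, 25.2% and 61.7% of all 26751 regions. Without P21 replicate 1, the library with the most peaks, 3704 regions met the rule, and without P0 replicate 1 3656 did. At chr15:30387117-30390877, the highest of them, the P0 heights were 24.8 and 43.6 over 3741 and 3755 bp. It had H3K27Ac in both P0 libraries and no H3K27me3 at any stage. At chr13:23377259-23379106 the P0 heights were 24.3 and 34.5 over 1578 and 1848 bp, with H3K27me3 in every library and no H3K27Ac or Brg1. Among the 10 highest, 8 had H3K27me3 in both P21 libraries and 0 had H3K27Ac in either P21 library. Of all 26751 regions, 26.6% and 29.2% overlapped H3K27me3 in the P21 libraries, and 36.7% and 64.8% overlapped H3K27Ac.

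Many regions that were lower at P21 or found at P0 only lay within H3K27me3 domains of P21. Domains were H3K27me3 intervals of any length, merged over both P21 libraries and found in both, which gave 13591. The 5041 of them that held an H3K4me3 region had a median length of 8.40 kb. They held 3980 of the tested regions (26.2%) and 1165 of the 1532 regions lower at P21 (76.0%), and 1029 of the 2005 regions found at P0 only (51.3%, against 26.5% of all 26751 regions). In 228 domains at least 2 regions were lower or found at P0 only, and in 23 at least 5 were. Those 23 held 30 of the lower regions and 119 of those found at P0 only. The domain with the most spanned 369 kb at chr11:95979001-96347599 and held 21 H3K4me3 regions. Of these, 16 and 21 had a peak in the P0 libraries, 3 in the P12 library, 2 and 1 in the P14 libraries, and 2 and 1 in the P21 libraries. H3K27me3 peaks covered 86.3% and 89.3% of this domain at P0 and 98.7% and 98.9% at P21. The domains were drawn from the P21 lists, so a high coverage at P21 follows from that choice. A difference in coverage between the stages was not tested. The next spanned 215 kb at chr19:44654001-44868999 and held 18 regions, of which 17 and 17 had a peak at P0, 8 at P12, 6 and 7 at P14, and 6 and 4 at P21. The domain at chr6:52093201-52283599 spanned 190.4 kb and held 24 regions, of which 16 and 23 had a peak at P0 and 7 and 4 at P21. H3K27me3 already covered 99.9% of it in P0 replicate 1 and all of it in replicate 2. At chr2:74468401-74629599, which spanned 161 kb, 14 and 15 of 15 regions had a peak at P0 and 6 and 2 at P21. At chr15:102690801-102989599, which spanned 299 kb, 11 and 14 of 14 regions had a peak at P0 and 4 and 2 at P21. No region in these 5 domains was higher, wider or found at P21 only, but the domains were ranked by their regions lower or found at P0 only. Each held only between 1 and 4 tested regions. Of all tested regions 1.68% were higher and 5.77% wider, and 3.7% of all 26751 regions were found at P21 only.

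The calls were found on every autosome and on chromosome X. The share of tested regions that fell in height ranged from 8.08% on chromosome 15 to 14.2% on chromosomes 3 and 13, and the share that rose ranged from 0.589% on chromosome X to 3.33% on chromosome 15. The share that widened was lowest on chromosome X (2.95% of 509 regions) and highest on chromosome 9 (8.53% of 844 regions). No test between chromosomes was made.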

How the data were processed

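H3K4me3 ChIP-Seq of wild-type P0 and P21 retinae was compared (2 libraries each). The authors deposited 1 narrowPeak list per library, in which each peak has a fold enrichment ratio over background and a −log10 q-value. The authors deposited H3K27me3 as intervals with a column of whole numbers that was not used. The submitters' processing notes name mm9, BWA 0.5.9-r26, Picard 1.65, MACS2 2.0.9 and SICER 1.1, without parameters. Lists were called per library, the weakest peak had a −log10 q-value between 1.31 and 1.47, and no read depth is given, so precision is known only from replicates. Fold enrichment depends on the depth of a library and on its background.

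Peaks sharing at least 1 bp were merged with pandas 2.3.3 and numpy 2.4.6 under Python 3.11.15, and overlaps were checked against bedtools 2.31.1. Log2 heights and widths, scaled to a common median over regions with a peak in all 4 libraries, entered linear models of limma 3.58.1 (lmFit, eBayes, Benjamini-Hochberg at 0.05) under R 4.3.3. The eBayes step draws the variance of each region towards that of all tested regions. In height, the SE of the named regions that were tested lay between 0.377 and 0.416, against a median of 0.382 over all tested regions. With absent peaks at 0, a pseudocount of 3.003, their 5th percentile, was added to the heights and a peak in 2 libraries was required. Fold changes on that scale are understated for low regions. The fits were tested on simulated data. With 2 libraries per stage the smallest two-sided p of an exact permutation test is 0.333. Such a test could not reach 0.05, and single regions were tested by limma only. Figures were drawn with matplotlib 3.10.9.

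The comparison, the lists and the tests were chosen with earlier results of these data known. Regions named were the 10 with the largest rise and fall in height and in width and the 10 highest found at 1 stage only, and domains were ranked by the number of regions lower or found at P0 only, chosen after the data were seen. The limit of 5000 bp for broad regions was also chosen then. The annotation at hand is GRCm38, on which chromosome 1 has its last gene end at 195291439, before the last peak end at 197068264. Gene lists and promoter windows planned for mm9 could therefore not be used, no gene was named and no sequence was read.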

Additional observations from a re-analysis of the deposited data

How the results depend on the processing

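Counts of called regions were recomputed under each alternative. For height, where 1787 regions were called, no scaling gave 8 and quantile normalization 682, and leaving out 1 replicate gave between 622 (without P0 replicate 2) and 2415 (without P21 replicate 2). For width, where 2287 were called, no scaling gave 943 and leaving out 1 replicate between 811 (without P0 replicate 1) and 4112 (without P21 replicate 1). With absent peaks at 0, where 4261 were called, no scaling gave 0, with 3811 at an unadjusted p under 0.05 by limma. A peak required in every library gave 1627, and leaving out 1 replicate between 1756 and 4955. A lone library was assumed to vary like the other stage. Regions found at P21 only numbered 989, and between 1014 and 5190 without 1 replicate. Those found at P0 only numbered 2005, and between 2040 and 3704. The other totals of called regions, both directions together, stayed within 1.5 times. By direction, regions higher at P21 numbered 255 and 409 with the replicate block, and wider regions 877 and 563 with the longest peak. With the replicate number as a replicate block the counts were 2467 for height, 2189 for width and 6208 with absent peaks at 0. The differences between replicates 1 and 2 at P0 and P21 correlated with r = 0.20 in height and -0.03 in width over 15207 regions. Whether equal replicate numbers share a batch cannot be told from only 2 pairs. For the named regions 620 of 656 recomputed differences kept their direction and side of the threshold, 36 lost significance (32 of them without scaling) and 0 reversed. A further 44 gave no value, since the region no longer had a peak in every library (25 of 60 with an equal number of peaks per library, 18 of 40 with a −log10 q-value of at least 5, and 1 with P14 added). Regions found at 1 stage only gave none without a library of that stage. The named regions were picked for their extreme values, so few were likely to change direction or lose their call. Those found at 1 stage only, with 80 and 80 of the comparisons, are set to 0 at the other stage and could hardly reverse. Of 9 counts within classes of H3K27me3 or H3K27Ac, recomputed as a choice made after the data were seen, those that moved by over 1.5 times numbered 8 without scaling, 8 without P0 replicate 2, 7 without P0 replicate 1, 4 without P21 replicate 1, 3 with quantile normalization, 2 with a trended and robust variance, 1 without P21 replicate 2 and 1 with the longest peak. The balance of rises and falls turned in the class with H3K27me3 at neither stage, and for regions bound by Brg1, with quantile normalization and without scaling. The other promoter windows planned were not run, since no annotation of the build was used. Reads per library are unknown, so an absent peak is not shown to be an absent mark.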
